A study of Mus musculus with 8 samples.

Results

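Cell cycle and DNA replication genes were followed in Neuro2a cells, a mouse neuroblastoma line that divides continuously in culture. The set holds 45 genes, taken by symbol from the 55367 genes of the deposited count table. They encode the helicase that opens replication origins, the sliding clamp, enzymes that supply nucleotides, cyclins and their kinases, kinase inhibitors, the transcription factors that drive the cycle, and proteins of the mitotic spindle. All 45 were found. Here 19 of them are called G1/S genes, whose transcripts rise before and during DNA synthesis. A further 17 are called G2/M genes, whose transcripts rise towards mitosis, and 9 are regulators that are not usually used to mark a phase.

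The study used transfected plasmids for CRISPR activation, or CRISPRa, in which a Cas9 that no longer cuts (sadCas9) is fused to the activator domain VP64 and a short guide RNA (sgRNA) directs it to a gene. The 3 CRISPRa libraries analysed (replicates 2, 3 and 5) came from cells given 750 ng of an sgRNA plasmid and 750 ng of a sadCas9-VP64 plasmid. The 3 no sgRNA libraries (replicates 2, 3 and 4) came from cells labelled as treated with VP64 and no sgRNA, so both groups carry the activator. The labels do not state the plasmid amount for these cells. The sample titles do not say whether another plasmid replaced the sgRNA plasmid. Polyadenylated RNA of whole cultures was sequenced. The labels do not say whether replicates of a group were separate cultures, and p-values therefore measure only the spread between these libraries, which may be technical.

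Cells enter S phase when cyclin D and cyclin E kinases phosphorylate the retinoblastoma protein and free E2F transcription factors, which turn on the genes for origin licensing and nucleotide synthesis. Later in the cycle, complexes that contain B-Myb and FoxM1 turn on the cyclins, kinases and motor proteins of mitosis. Inhibitors of cyclin-dependent kinases hold cells in G1, and most transcripts of the mitotic genes are scarce in cells that have stopped dividing.

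Read counts summed to between 32269399 and 34248514 in the CRISPRa libraries and between 29739422 and 32377208 in the no sgRNA libraries, and mitochondrial genes took between 1.04% and 1.30% of counts in the 6 libraries. Scn2a, the gene that the series is directed at, had 267, 279 and 231 counts with CRISPRa and 190, 193 and 130 without sgRNA. The groups of Scn2a did not overlap, but the difference did not pass the test (log2 fold change 0.48, SE 0.19, adjusted p = 0.0899). Isg15, an interferon-stimulated gene, moved with the groups, from between 11.4 and 14.7 CPM (a count scaled to a common library size) without sgRNA to between 220 and 265 CPM with CRISPRa; its part in the cell cycle results was not tested. Of 12 sympathoadrenal and neuronal markers that identify neuroblastoma cells, 11 were expressed enough to test, with a summed level of 1910 to 2078 CPM without sgRNA and 1659 to 1893 CPM with CRISPRa. Of these, Phox2a and Hand2, which specify sympathetic neurons, fell, and Tubb3 and Chga rose. Markers of other cells were low: the 5 fibroblast markers summed to 28.6 to 32.4 CPM without sgRNA and 14.6 to 21.4 CPM with CRISPRa, 5 macrophage markers to 0.632 to 1.65 CPM in all libraries, with Adgre1 and Lyz2 at 0, and 3 endothelial markers to 7.43 to 13.3 CPM, with Kdr at 0. Of these markers, the fibroblast genes Col1a2 and Pdgfra fell (log2 fold changes -0.88 and -0.70), and the endothelial gene Cdh5 rose from a mean of 0.408 to 1.70 CPM (log2 fold change 2.04, adjusted p = 0.0105), while Pecam1 had a log2 fold change of -0.47 (adjusted p = 0.103). The part of these markers in the cell cycle results was not tested. RNA of a whole culture does not separate fewer dividing cells from less RNA of these genes per cell, and those 2 cannot be told apart here.

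Most of the cell cycle genes were lower with CRISPRa. Of the 43 members expressed enough to test, 35 fell and 1, Ccnd1, rose at an adjusted p under 0.05, while 7 did not pass. Over all 15117 genes tested, 18.7% changed, 9.25% fell and 9.47% rose. Among the 8059 tested genes whose mean level lay between 13.8 and 235 CPM, the range that holds most members, 24.7% changed. The median log2 fold change of the members was -0.46, against -0.01 for all genes tested. CRISPRa libraries lay wholly below no sgRNA libraries for 36 members and wholly above for 1. Over all genes, the groups did not overlap for 36.4%, with CRISPRa below for 18.7%. All 45 members together took 0.337% to 0.364% of counts in the CRISPRa libraries and 0.428% to 0.455% in the no sgRNA libraries. Of the 36 called members, 13 (36.1%) differed by at least 1.5-fold, against 814 of the 2829 called genes overall (28.8%). The median absolute log2 fold change was 0.46 over the tested members and 0.15 over the 8059 genes in that range of levels.

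**Figure D1:**
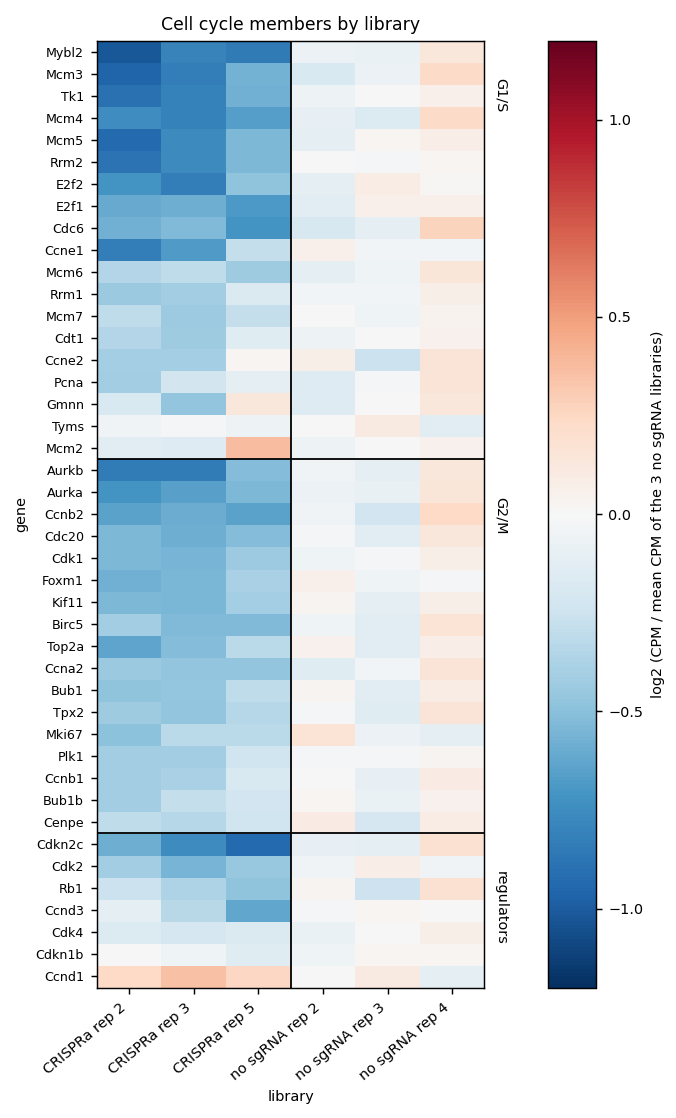
Level of the 43 tested members in each of the 6 libraries, as log2 of CPM over the mean CPM of the 3 no sgRNA libraries; blue is lower and red is higher. Members are grouped as G1/S, G2/M and regulators and sorted by fold change. The CRISPRa columns are blue for most rows, Ccnd1 is red in all 3 CRISPRa libraries, and Mcm2 is red in CRISPRa replicate 5 only among the CRISPRa libraries.

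The 4 transcription factors among the members all fell, against 9.25% of all genes tested, with a median log2 fold change of -0.65. Mybl2 (mm10 chr2:163054687-163084688, plus strand) encodes B-Myb, which works with FoxM1 to activate mitotic genes. Its level was 23.7, 27.4 and 26.7 CPM with CRISPRa and 45.6, 45.4 and 52.7 CPM without sgRNA. Every CRISPRa library lay far below every no sgRNA library, and the fall was the largest of any member (log2 fold change -0.89, SE 0.09, adjusted p = 1.14e-05). Of the 50-base words of the Mybl2 transcripts, 19.3% also occur in transcripts of another gene, mainly Gm3320, so part of its count is uncertain.

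E2f1 and E2f2 encode activating E2F factors, which switch on S phase genes. E2f1 was at 52.4, 53.0 and 49.4 CPM with CRISPRa and 72.6, 83.2 and 82.9 CPM without sgRNA. E2f2 was at 39.4, 36.4 and 46.3 CPM with CRISPRa and 60.1, 68.5 and 65.1 CPM without. In both genes the highest CRISPRa library was below the lowest no sgRNA library. The log2 fold change was -0.62 for E2f1 (SE 0.08, adjusted p = 6.45e-05) and -0.67 for E2f2 (SE 0.09, adjusted p = 0.000192). Foxm1, the mitotic activator, fell by 0.50 on the log2 scale, from a mean of 105 ± 4.38 to 73.8 ± 5.26 CPM (SD, n = 3 a group; edgeR adjusted p = 0.000255).

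Origin licensing loads the ring-shaped MCM helicase, made of 6 different subunits, onto DNA with the help of the loaders Cdc6 and Cdt1, while geminin (Gmnn) blocks Cdt1. Of these 9 members, 7 fell, against 9.25% of all genes tested. The subunits did not change by the same amount. Mcm3 (chr1:20802968-20820312, minus strand) was at 41.2, 45.3 and 54.1 CPM with CRISPRa and 70.6, 76.2 and 94.0 CPM without sgRNA. Mcm4 was at 30.2, 28.9 and 32 CPM against 47.3, 45.3 and 59.6 CPM. Mcm5 (chr8:75109569-75128439, plus strand) was at 43.2, 48.4 and 56.7 CPM against 76.1, 83.7 and 87.0 CPM. No library of one group reached the other group in any of these 3 subunits, and CRISPRa replicate 5 was the highest CRISPRa library in each. Their log2 fold changes were close to one another: -0.78 for Mcm3 (SE 0.11, adjusted p = 0.000255), -0.74 for Mcm4 (SE 0.10, adjusted p = 0.000185) and -0.74 for Mcm5 (SE 0.09, adjusted p = 9.43e-05). Mcm6 and Mcm7 fell by less, with log2 fold changes of -0.36 (SE 0.08, adjusted p = 0.00464) and -0.34 (SE 0.07, adjusted p = 0.00266). Of the words of Mcm7 transcripts, 23.3% are shared with other genes, mainly Gm5487.

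Mcm2 (chr6:88883474-88898780, minus strand) stood apart from the other subunits. It was at 58.7, 57.9 and 83.4 CPM with CRISPRa and 61.9, 64.8 and 67.0 CPM without sgRNA. The groups overlapped: CRISPRa replicates 2 and 3 were below all no sgRNA libraries and CRISPRa replicate 5 was above them. The log2 fold change of 0.05 (SE 0.11, adjusted p = 0.825) became -0.14 without CRISPRa replicate 5, again without passing the test. Whether the Mcm2 fold change differs from those of the other subunits was not tested.

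**Figure D2:**
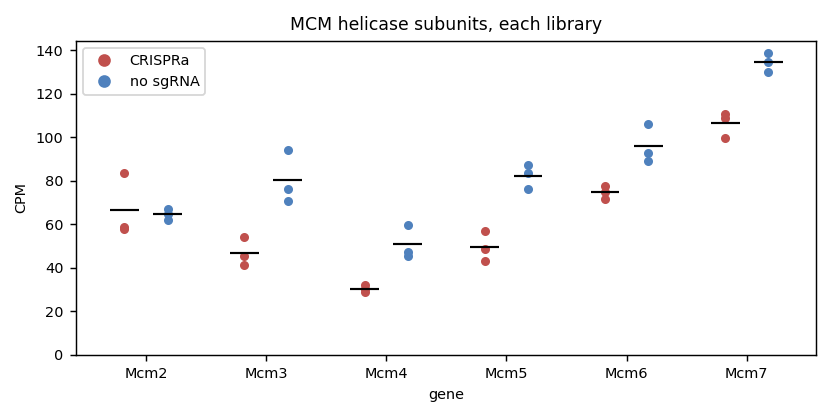
CPM of the 6 MCM helicase subunits in each library, with 3 CRISPRa and 3 no sgRNA points per gene and a black bar at each group mean; levels of different genes are not length-corrected here. CRISPRa points lie below no sgRNA points for every subunit except Mcm2, whose CRISPRa points span 57.9 to 83.4 CPM.

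The promoters of 3 subunits are printed to show letters that E2F factors and the factor NF-Y are known to bind, for a pair of subunits with a large fall and for Mcm2. These 3 were picked with their fold changes known. Each window runs from 170 bases before to 30 bases after the RefSeq start (GRCm38.p6) and is written along the gene's own strand. Capitals mark matches, on either strand, to the E2F letters TTTGGCGC, TTTCCCGC, TTTCGCGC or TTTGCCGC, to the cell cycle homology region (CHR) letters TTTGAA or TTCGAA, and to CCAAT. Matches may overlap, and the CHR letters TTCGAA read the same on both strands.
Mcm3 (chr1:20820283-20820482, minus strand): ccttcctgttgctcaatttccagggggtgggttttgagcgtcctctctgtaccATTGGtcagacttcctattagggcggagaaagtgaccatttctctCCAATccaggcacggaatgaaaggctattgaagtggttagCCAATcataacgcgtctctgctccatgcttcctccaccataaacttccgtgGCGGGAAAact
Mcm5 (chr8:75109339-75109538, plus strand): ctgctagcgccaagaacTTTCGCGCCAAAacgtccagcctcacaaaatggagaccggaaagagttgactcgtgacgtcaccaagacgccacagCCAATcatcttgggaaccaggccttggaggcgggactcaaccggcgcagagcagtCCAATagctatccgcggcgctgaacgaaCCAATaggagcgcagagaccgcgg
Mcm2 (chr6:88898751-88898950, minus strand): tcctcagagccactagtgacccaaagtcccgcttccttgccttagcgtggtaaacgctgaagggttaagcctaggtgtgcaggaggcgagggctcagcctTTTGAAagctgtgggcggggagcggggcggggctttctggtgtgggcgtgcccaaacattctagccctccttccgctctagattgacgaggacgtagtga

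In these windows Mcm3 has 1 E2F match and 3 CCAAT matches, Mcm5 has 2 overlapping E2F matches on opposite strands and 3 CCAAT matches, and Mcm2 has 1 CHR match and neither of the others. Just outside the printed windows, Mcm2 has a CCAAT match at base -175 from the start, and Mcm3 has a further E2F match at base 38. A match is a description of letters, not a bound site. Over the full RefSeq windows (250 bases before to 50 after a start), 35 of the 45 members had 39 promoters. Mcm6 has 3 E2F and 2 CCAAT matches there, and Mcm7 has up to 2 E2F, 1 CHR and 3 CCAAT matches in a promoter. These 2 subunits fell by less than Mcm3 and Mcm5, with log2 fold changes of -0.36 and -0.34. The E2F letters were in 7 of the 18 G1/S promoters (38.9%) and in 1 of the 13 G2/M promoters (7.69%), against 2.26% of all 32851 promoters in the table. The 7 G1/S genes with a match (Mcm3, Mcm5, Mcm6, Mcm7, Cdc6, Cdt1 and E2f2) had a median log2 fold change of -0.60, in a range from -0.78 to -0.30. The 9 G1/S genes whose windows hold none of these letters had a median of -0.58, in a range from -0.89 to 0.05, with Mybl2 at one end and Mcm2 at the other.

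The loaders fell less evenly. Cdc6, the tested member with the lowest level per length without sgRNA (2.05 CPM per kb of exon), went from a mean of 10.7 ± 1.91 to 7.06 ± 0.469 CPM (log2 fold change -0.60, SE 0.16, edgeR adjusted p = 0.0137), and without no sgRNA replicate 4 its adjusted p was 0.0692. Its call was also lost in the libraries numbered 2 and 3, which both groups hold, with the replicate number as a block in the fit (log2 fold change -0.39, adjusted p = 0.0835), unblocked (-0.40, adjusted p = 0.0974), and with the block and a length correction (-0.39, adjusted p = 0.0868). Cdt1 went from 116 ± 4.66 to 94.0 ± 9.72 CPM (log2 fold change -0.30, SE 0.08, edgeR adjusted p = 0.0136). Its call was lost without CRISPRa replicate 2, without CRISPRa replicate 3 or without no sgRNA replicate 3, with adjusted p-values of 0.0676, 0.098 and 0.0524. Gmnn was at 9.26, 7.57 and 11.5 CPM with CRISPRa and 9.44, 10.5 and 11.6 CPM without sgRNA, with overlapping groups (log2 fold change -0.15, SE 0.16, adjusted p = 0.559).

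Of the 5 members for the sliding clamp and nucleotide supply, 3 fell, against 9.25% of all genes tested. Tk1 (chr11:117815526-117826092, minus strand), a thymidine salvage enzyme, was at 20.3, 21.5 and 25.3 CPM with CRISPRa and 36.2, 37.6 and 39.3 CPM without sgRNA. Rrm2, the regulated subunit of ribonucleotide reductase, was at 21.6, 23.4 and 27.5 CPM against 39.5, 39.3 and 40.6 CPM. The groups stood well apart in both genes, which had log2 fold changes of -0.75 (SE 0.10, adjusted p = 0.000109) and -0.72 (SE 0.10, adjusted p = 0.000152). Rrm1, the partner subunit, fell by 0.34 (SE 0.08, adjusted p = 0.0066). Tyms, which makes thymidylate from deoxyuridylate, was at 50.3, 51.2 and 49.5 CPM with CRISPRa and 52.0, 55.7 and 47.3 CPM without sgRNA. Its CRISPRa libraries lay inside the span of the no sgRNA libraries, and its log2 fold change was -0.04 (SE 0.08, adjusted p = 0.796).

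Pcna (chr2:132249162-132253314, minus strand), the sliding clamp of the replication fork, had the highest level per length of the G1/S genes without sgRNA, at 37.7 CPM per kb. It was at 67.9, 77.7 and 83.5 CPM with CRISPRa and 81.1, 89.3 and 101 CPM without sgRNA. The groups overlapped because CRISPRa replicate 5 exceeded no sgRNA replicate 2, and the difference did not pass the test (log2 fold change -0.24, SE 0.09, adjusted p = 0.0787). It passed without either of those libraries (adjusted p = 0.0419 without CRISPRa replicate 5 and 0.0418 without no sgRNA replicate 2). It also passed with no filter (0.0283), with the replicate block on the libraries numbered 2 and 3 (0.0111), in those libraries unblocked (0.0372), and with the block and a length correction (0.0288). Of the words of Pcna transcripts, 19.1% are shared with Pcna-ps2.

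The D-type cyclins, which start the G1 kinases in response to growth signals, moved in opposite directions. Ccnd1 (chr7:144929931-144939925, minus strand) was the only member that rose. It was at 254, 275 and 256 CPM with CRISPRa and 214, 231 and 200 CPM without sgRNA. All CRISPRa libraries were above all no sgRNA libraries, by a small margin (log2 fold change 0.28, SE 0.07, adjusted p = 0.0101), and without CRISPRa replicate 3 the adjusted p was 0.0563. On 23.4% of its exonic bases Ccnd1 lies opposite exons of a gene on the other strand, and 21.6% of its words are shared with LTO1, so part of its count is uncertain if strand was not used in counting.

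Ccnd3 was at 110, 94.6 and 77.4 CPM with CRISPRa and 117, 121 and 119 CPM without sgRNA. The CRISPRa libraries were spread widely, with replicate 2 close to the no sgRNA libraries and replicate 5 far below. The fall (log2 fold change -0.34, SE 0.10, adjusted p = 0.0229) passed in 1 of the 6 fits that left out a library, the one without CRISPRa replicate 2; in the others the adjusted p was 0.0625 and 0.0704 without CRISPRa replicates 3 and 5, and 0.0526, 0.0823 and 0.0591 without no sgRNA replicates 2, 3 and 4. Ccnd2 was not tested, with 12, 0 and 2 counts in CRISPRa and 6, 0 and 0 in no sgRNA libraries. Of the E-type cyclins, which start S phase with Cdk2, Ccne1 fell from a mean of 21.8 ± 0.786 to 14.6 ± 2.96 CPM (log2 fold change -0.58, SE 0.13, edgeR adjusted p = 0.00694). Ccne2 was at 10.9, 10.9 and 14.7 CPM with CRISPRa and 15.2, 12 and 16 CPM without sgRNA; its groups overlapped (log2 fold change -0.25, SE 0.15, adjusted p = 0.283).

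Among the cyclin-dependent kinases, Cdk2, the S phase kinase, was at 45.3, 41.2 and 44.0 CPM with CRISPRa and 58.7, 63.8 and 58.8 CPM without sgRNA (log2 fold change -0.47, SE 0.08, adjusted p = 0.000656). Cdk4 (chr10:127063534-127067920, plus strand), the partner of D-type cyclins, had the highest level per length of all tested members without sgRNA, at 86.8 CPM per kb, and of the regulators. It was at 251, 246 and 250 CPM with CRISPRa and 268, 282 and 297 CPM without sgRNA. The groups did not overlap, but the difference was small and did not pass (log2 fold change -0.18, SE 0.06, adjusted p = 0.0571). The call is close to the threshold: it passed without no sgRNA replicate 2 (0.0446), with DESeq2 (0.0483), with limma-voom (0.048), with the replicate block (0.0363), and in the other fits of the libraries numbered 2 and 3 (0.0421 unblocked and 0.0423 with the block and a length correction). Exons on the other strand lie opposite 19.7% of its exonic bases. Cdk6 was not tested, with 2, 0 and 6 counts in CRISPRa and 4, 2 and 3 in no sgRNA libraries; it encodes the other kinase partner of D-type cyclins.

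Of the inhibitors and the pocket protein Rb1, which restrains E2F factors, 2 of 3 fell, against 9.25% of all genes tested. Cdkn2c, an inhibitor of the cyclin D kinases, was at 30.5, 27.2 and 24.0 CPM with CRISPRa and 42.6, 42.6 and 52.0 CPM without sgRNA. The groups were well separated (log2 fold change -0.75, SE 0.11, adjusted p = 0.000232). Cdkn2c was lowest in CRISPRa replicate 5, the library in which Mcm3, Mcm4 and Mcm5 were highest among the CRISPRa libraries. Mcm6, Cdc6, E2f1, Ccnd3 and Rb1 were, like Cdkn2c, lowest in that library among the CRISPRa libraries. A link between these levels was not tested. Rb1 was at 57.2, 52.9 and 49.0 CPM against 70.0, 57.6 and 77.6 CPM (log2 fold change -0.37, SE 0.10, adjusted p = 0.0188). Its call was lost in 4 of the 6 fits that left out a library, at 0.0595 and 0.068 without CRISPRa replicates 3 and 5 and 0.0606 and 0.0906 without no sgRNA replicates 2 and 4, and in the libraries numbered 2 and 3 unblocked (log2 fold change -0.21, adjusted p = 0.0931). Cdkn1b, an inhibitor of the cyclin E kinase, was at 195, 187 and 176 CPM with CRISPRa and 187, 197 and 198 CPM without sgRNA, with overlapping groups (log2 fold change -0.06, SE 0.06, adjusted p = 0.546).

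Each of the 17 G2/M members fell, and none overlapped between groups. Over all genes tested, 9.25% fell and 18.7% had CRISPRa wholly below. Cdk1, the kinase that drives mitosis, was at 108, 106 and 116 CPM with CRISPRa and 151, 154 and 164 CPM without sgRNA (log2 fold change -0.51, SE 0.07, adjusted p = 9.71e-05). Its mitotic partner Ccnb2 was at 30.5, 31.4 and 30.4 CPM against 46.0, 40.5 and 56.0 CPM (log2 fold change -0.63, SE 0.11, adjusted p = 0.000861). In Ccnb2 the CRISPRa libraries were nearly equal while the no sgRNA libraries were spread. Ccnb1 and Ccna2 fell by 0.33 (SE 0.08, adjusted p = 0.00727) and 0.46 (SE 0.08, adjusted p = 0.00107). Of the words of Ccnb1 transcripts, 23.4% are shared with other genes, mainly the pseudogene Ccnb1-ps.

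The Aurora kinases, which build the spindle (Aurka) and correct the attachment of chromosomes (Aurkb), had the largest falls of the G2/M genes. Aurkb was at 32.8, 32.9 and 40.9 CPM with CRISPRa and 57.1, 54.5 and 64.7 CPM without sgRNA. Aurka was at 38.3, 40.2 and 43.2 CPM against 59.9, 59.3 and 69.7 CPM. The highest CRISPRa library was below the lowest no sgRNA library in both genes, with log2 fold changes of -0.72 (SE 0.10, adjusted p = 0.000168) and -0.64 (SE 0.09, adjusted p = 0.000148). Birc5 (survivin), which works in a complex with Aurkb, fell by 0.49 (SE 0.09, adjusted p = 0.00141). Tpx2, which activates Aurka at the spindle, fell by 0.41 (SE 0.08, adjusted p = 0.00195).

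Top2a (chr11:98992943-99024189, minus strand), the topoisomerase that untangles sister chromosomes, had the highest level per length of the G2/M genes, at 63.1 CPM per kb without sgRNA. It was at 368, 396 and 453 CPM with CRISPRa and 588, 519 and 600 CPM without sgRNA. The groups did not overlap, and CRISPRa replicate 5 was the closest to the no sgRNA libraries (log2 fold change -0.49, SE 0.08, adjusted p = 0.000768). The spindle checkpoint and its target were lower too: Cdc20, the activator of the ligase that ends mitosis, fell by 0.55 (SE 0.08, adjusted p = 0.000406), and the checkpoint kinase Bub1 fell by 0.42 (SE 0.08, adjusted p = 0.00285). The spindle motor Kif11 fell by 0.50 (SE 0.07, adjusted p = 0.000231). Mki67, a widely used marker of dividing cells, was at 163, 182 and 183 CPM with CRISPRa and 256, 218 and 213 CPM without sgRNA (log2 fold change -0.38, SE 0.08, adjusted p = 0.00354).

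The smallest falls of the G2/M genes were in Plk1, a mitotic kinase (log2 fold change -0.35, adjusted p = 0.00694), the checkpoint protein Bub1b (-0.31, adjusted p = 0.0092), Ccnb1, given above, and the kinetochore motor Cenpe (-0.30, adjusted p = 0.0266). Bub1b did not pass without CRISPRa replicate 2 (adjusted p = 0.0669). Cenpe did not pass without CRISPRa replicate 2 or 3 (0.0868 and 0.115) or without no sgRNA replicate 2 or 4 (0.104 and 0.0939). For each member given above with every library and no overlap between its groups, the two-sided exact permutation p of the mean CPM was 0.1, and no smaller value is possible with 3 libraries against 3.

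The promoters of 3 G2/M members are printed for comparison with the helicase subunits, since mitotic promoters are known for CHR letters near the start with CCAAT upstream. Windows and capitals are as above.
Cdk1 (chr10:69352883-69353082, minus strand): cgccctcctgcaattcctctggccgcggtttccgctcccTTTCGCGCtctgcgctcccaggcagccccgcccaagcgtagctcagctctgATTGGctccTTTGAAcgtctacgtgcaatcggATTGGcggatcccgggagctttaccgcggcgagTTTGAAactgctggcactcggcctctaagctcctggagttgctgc
Cdc20 (chr4:118437314-118437513, minus strand): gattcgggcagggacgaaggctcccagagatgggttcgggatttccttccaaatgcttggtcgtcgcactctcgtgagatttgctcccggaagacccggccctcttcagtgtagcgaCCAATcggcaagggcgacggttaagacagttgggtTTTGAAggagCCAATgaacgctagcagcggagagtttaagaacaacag
Ccnb2 (chr9:70421525-70421724, minus strand): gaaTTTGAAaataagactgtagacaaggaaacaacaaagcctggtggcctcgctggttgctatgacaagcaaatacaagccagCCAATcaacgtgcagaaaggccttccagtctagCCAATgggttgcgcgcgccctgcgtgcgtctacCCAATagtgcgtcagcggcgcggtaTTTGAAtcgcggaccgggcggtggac

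Cdk1 has 1 E2F match, 2 CHR matches and 2 CCAAT matches in its window. Cdc20 has 1 CHR and 2 CCAAT matches, and Ccnb2 has 2 CHR and 3 CCAAT matches. Over the full windows, CHR letters were in 10 of the 13 G2/M promoters (76.9%) and in 3 of the 18 G1/S promoters (16.7%), against 19.2% of all promoters in the table. CCAAT was in 12 of the 13 G2/M promoters (92.3%) and 11 of the 18 G1/S promoters (61.1%), against 37.4% of all promoters. None of the 8 regulator promoters held CHR letters. The 10 G2/M genes with CHR letters had a median log2 fold change of -0.49 and the 3 without (Birc5, Ccnb1 and Cenpe) one of -0.33. In the G1/S list the order was the reverse, at -0.339 for the 3 genes with CHR letters and -0.605 for the 13 without. By CCAAT, the medians were -0.361 (9 G1/S genes with) and -0.605 (7 without), and -0.452 (12 G2/M genes with) and -0.492 (1 without). With so few genes these medians are a description only.

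The G1/S and G2/M genes were lower with CRISPRa by nearly the same proportion. Summed over the 19 G1/S genes, the level was 866, 878 and 995 CPM with CRISPRa and 1170, 1217 and 1309 CPM without sgRNA. Over the 17 G2/M genes it was 1545, 1593 and 1747 CPM against 2259, 2071 and 2343 CPM. In both sums every CRISPRa library was below every no sgRNA library, and CRISPRa replicate 5 was the nearest to the no sgRNA libraries. The ratio of group means, CRISPRa over no sgRNA, was 0.741 for G1/S genes (913 ± 71.4 against 1232 ± 70.5 CPM, SD, n = 3) and 0.732 for G2/M genes (1628 ± 105 against 2225 ± 139 CPM, SD, n = 3). The G2/M sum divided by the G1/S sum was 1.79, 1.82 and 1.76 with CRISPRa and 1.93, 1.70 and 1.79 without sgRNA. The CRISPRa values lay within the span of the no sgRNA values, with means of 1.79 ± 0.0297 and 1.81 ± 0.116. Without Gmnn, Mybl2, Ccna2 and Foxm1, whose transcripts rise through S phase and are less specific to a phase, the means were 1.70 ± 0.0281 and 1.73 ± 0.117. No shift between the phases was detectable against the spread between libraries.

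**Figure D3:**
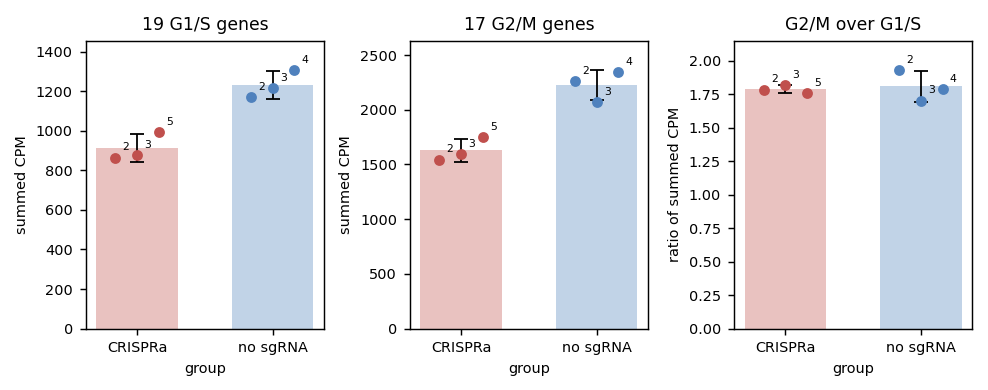
Summed CPM of the 19 G1/S genes, summed CPM of the 17 G2/M genes, and their ratio, for CRISPRa and no sgRNA; bars are means of 3 libraries, error bars are 1 SD and numbered points are replicates. Both sums are lower in all 3 CRISPRa libraries, and the ratios overlap between groups.

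Single genes varied more within the G1/S list than within the G2/M list. The 19 G1/S genes ran from a log2 fold change of -0.89 to 0.05, with a median of -0.58 and quartiles at -0.73 and -0.28, and 14 fell. The 17 G2/M genes ran from -0.72 to -0.30, with a median of -0.49 and quartiles at -0.51 and -0.38. The 9 regulators were the most mixed: of 7 tested, 4 fell, 1 rose and 2 did not pass, with a median of -0.34. Over all genes tested, 9.25% fell and 9.47% rose. The medians describe lists of these lengths, and no test of the difference between lists was made.

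**Figure D4:**
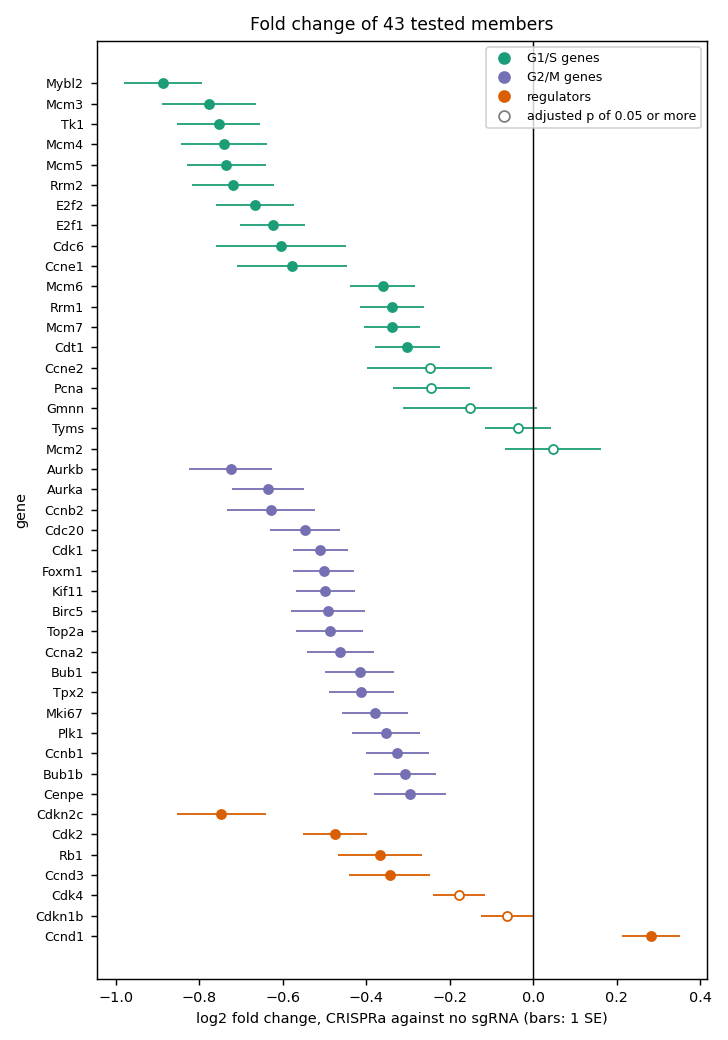
Log2 fold change (CRISPRa against no sgRNA) of the 43 tested members with bars of 1 SE, by list; filled points passed an adjusted p of 0.05 and open points did not. G2/M genes form one band from -0.72 to -0.30, while G1/S genes spread from -0.89 to 0.05 and Ccnd1 is the only filled point above 0.

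Within a group, the members differed little between libraries. The median absolute log2 difference over the 43 tested members was 0.06 between CRISPRa replicates 2 and 3. It was 0.17 and 0.15 between CRISPRa replicate 5 and those 2 libraries. Between no sgRNA libraries it was 0.10, 0.12 and 0.17. Across groups it was between 0.34 and 0.58, larger than within either group for every pair of libraries.

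Genes of the same pathways that are not members were lower too. Their lists, given here and below, were chosen with earlier results of these data known, so the shares are a description. Of 47 other replication genes, all tested, 28 (59.6%) fell and none rose, against 9.25% and 9.47% of all genes tested. The median log2 fold change of the list was -0.38. The largest falls were in Clspn, an adaptor of the replication checkpoint (-0.79, adjusted p = 0.000876), and the histone chaperones Asf1b (-0.73, adjusted p = 2.75e-05) and Chaf1a (-0.71, adjusted p = 8.37e-05). Of the words of Chaf1a transcripts, 49.7% are shared with another gene, so its value is uncertain. Of the origin recognition complex, singled out after its values were seen, none of Orc1 to Orc6 passed the test, with log2 fold changes from -0.28 (Orc6, adjusted p = 0.122) to 0.13 (Orc4, adjusted p = 0.281). In the authors' deposited table Orc6 was lower (log2 fold change -0.35, adjusted p = 0.00128). Whether these subunits differ from the other replication genes was not tested.

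Of 45 other mitotic genes, 36 (80%) fell and 1 rose, against 9.25% and 9.47% of all genes tested. The median of the list was -0.40. The largest falls were in the kinetochore gene Spc24 (-0.77, adjusted p = 0.00087), in Cdca3, a trigger of mitotic entry (-0.76, adjusted p = 8.06e-06), and in Cdca8, a partner of Aurkb and Birc5 (-0.66, adjusted p = 4.35e-05). Racgap1, which acts in cytokinesis, was the exception. It was at 987, 948 and 905 CPM with CRISPRa and 854, 799 and 704 CPM without sgRNA, with no overlap (log2 fold change 0.27, SE 0.07, adjusted p = 0.0186). It did not pass without CRISPRa replicate 2 or 3 (adjusted p = 0.0699 and 0.0545) or without no sgRNA replicate 3 (0.0571).

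Of 36 other cell cycle regulators tested, 11 (30.6%) fell and 2 rose, against 9.25% and 9.47% of all genes tested. The median of these regulators was -0.15. The falls were led by E2f8, a repressive E2F factor that is itself an E2F target (-0.82, adjusted p = 0.000188), Fbxo5, an inhibitor of the ligase that ends mitosis (-0.77, adjusted p = 8.42e-06), and Cdkn2d, an inhibitor of the cyclin D kinases (-0.69, adjusted p = 0.0004). The 2 that rose were Atm and Cdkn1a. Atm, a kinase of the DNA damage response, was at 39.2, 38.7 and 48.2 CPM with CRISPRa and 24.9, 25.4 and 20.4 CPM without sgRNA (log2 fold change 0.84, SE 0.11, adjusted p = 0.00012). Cdkn1a, a kinase inhibitor that p53 induces, was at 48.9, 55.2 and 52.2 CPM against 34.3, 37.3 and 37.5 CPM (log2 fold change 0.52, SE 0.08, adjusted p = 0.000521). Both genes were higher in all 3 CRISPRa libraries than in any no sgRNA library.

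**Figure D5:**
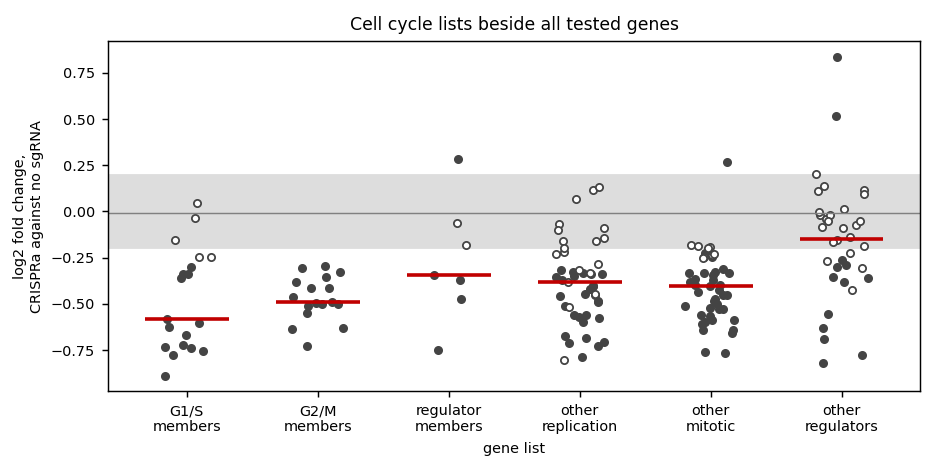
Log2 fold changes (CRISPRa against no sgRNA) of the tested genes of 6 lists; filled points passed an adjusted p of 0.05, open points did not, and red bars are list medians. The grey line and band are the median and the quartiles of all 15117 genes tested. The G1/S members, the G2/M members, the other replication genes and the other mitotic genes lie mostly under the band. The other regulators lie mostly within or close to it.

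The authors' deposited table of their own comparison is named as covering 8 samples and shares libraries with the counts, so it is not independent of them. All 45 members are in it. In the authors' deposited table, members that were lower numbered 38 and 1, Ccnd1, was higher, at an adjusted p under 0.05, against 28.6% of the 13798 genes with an adjusted p, with 13.8% lower. Pcna, Ccne2 and Cdk4, which did not pass above, were called there, with adjusted p-values of 0.00624, 0.0064 and 0.0017. Mcm2 had a log2 fold change of 0.00 in the authors' deposited table (adjusted p = 0.994), and Tyms, Gmnn and Cdkn1b were not called in it either.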

How the data were processed

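Polyadenylated RNA was sequenced from 8 samples in the labels, and the counts of 6 were used, 3 per group; the remaining CRISPRa and no sgRNA samples (replicates 1 and 5) were not analysed here. The authors deposited whole-number read counts per gene, with no normalisation, made with STAR 2.5.1b and featureCounts on mm10, per the submitters' processing notes, which also name R 4.1.2. Options, strand, annotation and the treatment of multi-mapping reads are not given in the sources used here. Gene spans come from the count table and equal those of GENCODE M21 for all 45 members.

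The authors also deposited the results of their comparison: a signal (mean normalised count), a log2 fold change and its SE, a Wald score, and raw and adjusted p-values. Its direction is not stated; it was read as CRISPRa against no sgRNA because Isg15 is positive in it (4.20) and higher in the CRISPRa counts.

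Counts were tested in edgeR 4.0.16 (R 4.3.3) by its quasi-likelihood F test, with filterByExpr and TMM scaling. P-values were adjusted by Benjamini-Hochberg over the 15117 genes tested, and called under 0.05. SE is the size of the log2 fold change divided by the square root of F, and CPM is TMM-scaled. The fit was also run on simulated counts, which gave every gene the same dispersion and held no differences between replicates beyond it. That run checked the code and does not bear on the spread between these libraries. Alternatives included DESeq2 1.42.0 and limma 3.58.1 (voom), other scalings and filters, a gene-length correction, and each library left out. The members and lists were chosen with earlier results of these data known. Named in full are called members with no overlap between groups and a mean of at least 1 CPM (up to 12 per direction by fold change), the member of each list with the highest CPM per kb, and untested members; for other lists, the 3 largest changes in each direction. Other genes named were chosen for their role after values were seen. Shared words are 50-base words of GENCODE M21 transcripts found in another gene. No pairing by replicate number was visible. The differences between the libraries numbered 2 and 3 had a correlation of 0.0079 over 15117 genes between groups. The labels do not state a pairing, and this correlation cannot exclude one. Exact p-values for 3 libraries against 3 cannot fall under 0.1.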

Additional observations from a re-analysis of the deposited data

How the results depend on the processing

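Of 251 alternatives for the called counts, list medians, the G2/M over G1/S ratio and Scn2a, 235 matched the main result by set rules. A count matched if it stayed within 1.5 times the main count, and its direction was not checked. A median or ratio had to stay within 1 SD, and a median also had to keep its direction. Scn2a had to keep its direction and stay on the same side of the adjusted p threshold. The ratio was not refitted under other scalings, because a ratio within a library does not depend on scaling. Its entries under those scalings matched by construction and are counted among the 235. The counts and medians of all members hold the genes of the shorter lists, so the 251 alternatives are not separate checks. Members changed numbered 36 or 37 under every other scaling, filter, tool or length correction and 31 to 35 when 1 library was left out, and 29 of the 36 called members passed in all 17 fits; the exceptions were Cdc6, Cdt1, Bub1b, Cenpe, Ccnd1, Ccnd3 and Rb1. All 36 kept their direction. At an adjusted p under 0.01, 2 regulator members and 1417 of all genes changed, against 5 and 2829. With 1 library left out, regulator members changed ranged from 2 to 5 and their median log2 fold change from -0.41 to -0.22, and the G1/S median ranged from -0.59 to -0.45. The replicate block, possible only for the libraries numbered 2 and 3, called 37 members, with a G1/S median of -0.39 and a regulator median of -0.21; the same 4 libraries without the block gave -0.40 and -0.21, and the replicate block with the length correction -0.44 and -0.21. Without a filter the regulator median was -0.26, as Ccnd2 and Cdk6 then enter. The Mcm2 log2 fold change turned to -0.12 under the replicate block, -0.12 without it, -0.13 with the length correction, and it ranged from -0.14 (without CRISPRa replicate 5) to 0.15 with 1 library left out. The Tyms log2 fold change ranged from -0.097 to 0.019 with 1 library left out, and the Cdkn1b log2 fold change turned to 0.0024 under the replicate block with the length correction. None of these 3 passed in any fit. The cause of these moves was not tested, beyond the fewer libraries or added genes named. Ccnd2 and Cdk6, with at most 12 counts in any library, were tested only without the filter on low counts. The replicate block also ended the Cdc6 call and brought Pcna and Cdk4 past the threshold, as did the same 4 libraries without it.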

Other observations

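Myc and Mycn encode transcription factors known to drive proliferation in neuroblastoma, and neither passed the test. Myc was at 401, 387 and 405 CPM with CRISPRa and 406, 405 and 427 CPM without sgRNA (edgeR log2 fold change -0.05, SE 0.06, adjusted p = 0.576). Mycn was at 33.2, 27.0 and 23.8 CPM against 29.0, 28.0 and 30 CPM (log2 fold change -0.05, SE 0.11, adjusted p = 0.812). Skp2, a ligase subunit that removes kinase inhibitors, fell from a mean of 55.0 to 35.5 CPM (log2 fold change -0.63, SE 0.08, adjusted p = 0.000107). These genes were chosen after their values were seen.

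Fen1, a nuclease that every replication fork needs, had only 0.429 to 1.44 CPM in the 6 libraries. Levels of other replication genes varied widely: Lig1 was at 49.6 to 87.0 CPM, but Pold4 was at 2.76 to 5.08 CPM and Orc1 at 1.93 to 2.40 CPM. Fen1 had a log2 fold change of -0.80 that did not pass the edgeR test (adjusted p = 0.27). Exons of a gene on the other strand lie opposite 84.2% of its exonic bases, and 76.7% of its words are shared with another gene, mainly Gm10143. Whether the counting assigned its reads to no gene was not tested.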
